A study of Mus musculus with 18 samples.

Results

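The let-7 3p arms are the strands cut from the 3′ side of the let-7 microRNA hairpins. The deposited table of mouse skin microRNAs listed 12 of them, miR-98-3p included, among 1251 entries. Described here are the 4 that stood above the lowest value of the table in at least 6 of the 18 libraries, namely mmu-let-7b-3p, mmu-let-7d-3p, mmu-let-7e-3p and mmu-let-7i-3p, written below without the species prefix. They were chosen by their measured levels over all libraries. In total 293 microRNAs of the table passed the same filter and were tested.

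Small RNA was sequenced from 6 female SKH-1E Hairless mice, an outbred strain that lacks the Hairless gene. Each mouse had been exposed repeatedly to solar-simulated ultraviolet light and gave 1 library of each of 3 sample types, which made 6 libraries per type. The first type was nonlesional, chronically irradiated skin (CHR), the second papilloma (PAP), a benign precursor lesion, and the third invasive cutaneous squamous cell carcinoma (cuSCC). The mice were littermates and all 3 tissues had been irradiated, so unexposed skin was not part of the comparison. The labels give no age, and number the mice 2, 3, 7, 8, 9 and 10.

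A microRNA precursor folds into a hairpin, from which Dicer cuts a short duplex with a strand from each side. One strand is loaded into an Argonaute protein and guides it to messenger RNAs through its seed, the bases near its 5′ end, while the other strand is usually discarded and degraded. In most let-7 hairpins the 5p arm is the loaded guide, and it represses growth-promoting genes such as Ras, Hmga2 and Myc as tissues mature. The 3p arms are the passenger strands and are generally far less abundant. LIN28 proteins block the maturation of let-7 precursors, and low let-7 is a known feature of many tumours.

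The 4 sequences are shown because the seed decides which messages a loaded arm could pair with, and because near-identical arms are hard to tell apart in short reads. They are from RefSeq (GRCm38.p6), run 5′ to 3′ and have their seed, bases 2 to 8, in capitals.
let-7b-3p: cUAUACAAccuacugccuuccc
let-7d-3p: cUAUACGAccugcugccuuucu
let-7e-3p: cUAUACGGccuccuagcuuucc
let-7i-3p: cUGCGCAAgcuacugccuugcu
The 5p arms of the same hairpins have 1 seed in common, as these sequences show.
let-7b-5p: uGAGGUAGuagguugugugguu
let-7d-5p: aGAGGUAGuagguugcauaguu
let-7e-5p: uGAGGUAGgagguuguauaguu
let-7i-5p: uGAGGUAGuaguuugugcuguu

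The 4 3p arms had 4 different seeds, whereas their 5p partners had only GAGGUAG. The seed of let-7b-3p, UAUACAA, was shared by 4 other mature mouse microRNAs, let-7f-1-3p, let-7a-1-3p, let-7c-2-3p and miR-98-3p, of which 0 were detected often enough to be tested. The seeds UAUACGA of let-7d-3p, UAUACGG of let-7e-3p and UGCGCAA of let-7i-3p were shared with 0 other entries of the RefSeq table. Aligned from their first base, let-7b-3p and let-7d-3p had the same base at 18 of 22 positions, the most alike of the 6 pairs, and let-7e-3p and let-7i-3p at 11, the least alike. The nearest relative among all let-7 3p arms was let-7f-1-3p for let-7b-3p, with 2 differing bases, and let-7a-2-3p for let-7e-3p, also with 2. let-7d-3p and let-7i-3p were both nearest to let-7b-3p, with 4 and 6 differing bases. let-7f-1-3p and let-7a-2-3p were listed at the lowest value in every library.

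The arms come from 4 chromosomes. In GRCm38 the mature let-7b-3p lies on the plus strand at chr15:85707379-85707400, and its hairpin lies in an exon of Lncppara, a non-coding transcript, 621 bases from the let-7c-2 hairpin. The mature let-7d-3p lies on the minus strand at chr13:48536024-48536045, in an exon of the lincRNA 6720427I07Rik, with 1714 bases between its hairpin and that of let-7f-1 and 2064 to that of let-7a-1. The mature let-7e-3p lies on the plus strand at chr17:17830411-17830432, in an intron of the protein-coding gene Spaca6. Its hairpin is 94 bases from that of miR-99b and 367 from that of miR-125a, and an annotated microRNA gene, Gm25927, overlaps it on the other strand. The mature let-7i-3p lies on the minus strand at chr10:122985642-122985663, in an exon of the transcribed pseudogene D630033A02Rik. Whether the counting used strand is not given in the sources used here.

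Levels are log2 ppm of usable reads, the unit of abundance in the study, after quantile normalisation. Libraries hold nearly the same value at each rank, down to the rank at which a library has no more detected entries, so that a detected level reflects the rank of a microRNA in its library. The lowest value, 3.32, is 10 ppm, and microRNAs at this value are called not detected here. Whether they had reads below 10 ppm is not given in the sources used here. The number of reads per library is unknown. CHR libraries held 200 to 328 detected entries, those of PAP 163 to 281 and those of cuSCC 236 to 365, and the lowest detected value reached 6.83 in PAP of mouse 10 and 6.72 in PAP of mouse 7, against at most 5.77 in CHR and 4.50 in cuSCC. A weak arm could therefore be missed in PAP libraries at levels that were visible in the others. As a check of the skin label, the keratinocyte microRNA miR-205-5p was abundant, at 17.87 in CHR, 18.22 in PAP and 18.08 in cuSCC (means, n = 6). The lowest of the 7 listed keratinocyte microRNAs, miR-200a-3p, was at 5.22, 6.82 and 7.24 in the same order.

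The 4 arms differed widely in how often they were seen. let-7d-3p was detected in 18 of 18 libraries, let-7b-3p in 17, let-7e-3p in 16 and let-7i-3p in 11. let-7i-3p was above the lowest value in 6 CHR libraries but in only 5 of the lesions, so it entered the test through CHR, the type in which it was highest. Just outside the threshold, let-7a-1-3p and let-7c-2-3p were each above the lowest value in 3 libraries and let-7c-1-3p in 2, with highest values of 3.81. let-7a-1-3p and let-7c-2-3p have the same 22 bases and held the same value in every library. The remaining 5 listed arms, let-7a-2-3p, let-7f-1-3p, let-7f-2-3p, let-7g-3p and miR-98-3p, were detected in 0 libraries.

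**Figure D1:**
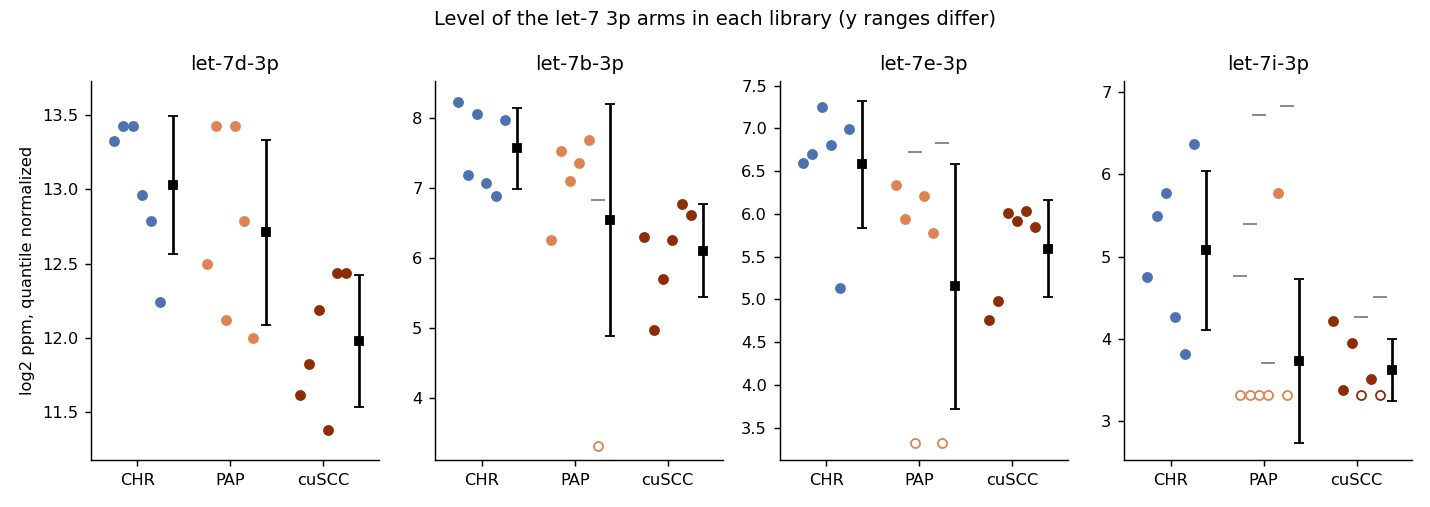
Level (log2 ppm, quantile normalised) of each let-7 3p arm in the 6 CHR, 6 PAP and 6 cuSCC libraries. Filled points are detected values, open points are values at the lowest value of 3.32, the grey dash over an open point is the lowest detected value of that library, and black squares with bars are means ± SD. let-7b-3p in cuSCC lies below every CHR value, while let-7i-3p is open in 5 of 6 PAP libraries.

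let-7d-3p was the abundant 3p arm and lost about 1 log2 unit between CHR and cuSCC. In CHR it lay between 12.24 and 13.43 with a median of 13.14, which placed it at rank 29 to 45 of its library. In PAP it ranged from 12.002 to 13.43 with a median of 12.64, and in cuSCC from 11.38 to 12.44 with a median of 12.0045, at rank 42 to 60. The PAP values covered the whole CHR range and reached below it, whereas 4 of the 6 cuSCC values lay below every CHR value. The CHR mean was 13.03 ± 0.47 and the cuSCC mean 11.98 ± 0.44 (SD, n = 6). let-7d-3p thus fell by 1.05 on the log2 scale, to 48.3% of the CHR level (standard error 0.30, 95% interval -1.70 to -0.40, limma adjusted p = 0.0142). Within mice, cuSCC minus CHR was negative in 5 of 6, from -1.71 to -0.35, and 0.19 in mouse 10. The adjusted p was 0.0647 without mouse 2, 0.0677 without mouse 3 and 0.0551 without mouse 8, with differences of -0.92 to -0.94.

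The papilloma mean of let-7d-3p was 12.71 ± 0.62 (SD, n = 6). It differed from CHR by -0.32 (95% interval -1.04 to 0.40, limma adjusted p = 0.48), and mice 3 and 9 had the same value in PAP as in CHR. From PAP to cuSCC the difference was -0.73 (95% interval -1.45 to -0.01, limma adjusted p = 0.173), with 4 of 6 mice lower. Hence neither step on its own passed the test, and the position of papilloma between the 2 other types is given by means alone.

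let-7b-3p was the only 1 of the 4 arms whose CHR and cuSCC levels did not overlap. Its CHR levels ran from 6.88 to 8.22 with a median of 7.58 and its cuSCC levels from 4.98 to 6.77 with a median of 6.28. In PAP the levels were 3.32 to 7.68 with a median of 7.23. The lowest PAP value came from mouse 10, where let-7b-3p was not detected in a library without detected values under 6.83, while of the other 5 PAP values 4 lay inside the CHR range and 1, from mouse 2, below it. With means of 7.56 ± 0.58 in CHR and 6.11 ± 0.66 in cuSCC (SD, n = 6), let-7b-3p fell by 1.46 on the log2 scale (standard error 0.37, 95% interval -2.24 to -0.67, limma adjusted p = 0.00648), which is 36.4% of the CHR level. All 6 mice were lower in cuSCC, with differences from -2.35 in mouse 7 to -0.11 in mouse 9. The call held with any 1 mouse left out (adjusted p 0.00453 to 0.0321) but not in a single fit on all 3 sample types (adjusted p = 0.0603), where the wide PAP spread entered the error.

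The PAP mean of let-7b-3p, 6.54 ± 1.66 (SD, n = 6), differed from CHR by -1.02 (95% interval -2.45 to 0.41, limma adjusted p = 0.262). Without PAP of mouse 10 the difference was -0.38. Against PAP, cuSCC differed by -0.44 (95% interval -1.90 to 1.03, limma adjusted p = 0.717). Only 3 of 6 mice were lower in PAP than in CHR.

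let-7e-3p was lower in cuSCC by a margin that barely passed. Its CHR levels were 5.14 to 7.25 with a median of 6.75, its PAP levels 3.32 to 6.34 with a median of 5.86, and its cuSCC levels 4.76 to 6.04 with a median of 5.88. A single low CHR value, 5.14 in mouse 9, made the CHR and cuSCC ranges overlap, and the other 5 CHR values were above every cuSCC value. The means were 6.58 ± 0.74 and 5.59 ± 0.57 (SD, n = 6). On the log2 scale let-7e-3p fell by 0.99 (standard error 0.38, 95% interval -1.81 to -0.17, limma adjusted p = 0.0494), to 50.4% of its CHR level. In mouse 9 cuSCC was higher by 0.90, and in the other 5 mice the difference was -1.84 to -0.89. The call was lost with mouse as a replicate block (adjusted p = 0.0719) and with mouse 2, 3, 7, 8 or 10 left out (0.0821 to 0.156), while without mouse 9 the adjusted p was 0.007.

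In papilloma let-7e-3p was not detected in mice 7 and 10, the libraries with the highest detection limits. The PAP mean of 5.15 ± 1.43 (SD, n = 6) differed from CHR by -1.43 (95% interval -2.75 to -0.11, limma adjusted p = 0.0919). When each undetected entry was given the lowest detected level in its library, the same difference was -0.28 (adjusted p = 0.553). Against PAP, cuSCC differed by 0.44 (95% interval -0.84 to 1.72, limma adjusted p = 0.653), and by -0.71 under the same replacement.

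let-7i-3p was the weakest of the 4 and was seldom detected outside CHR. In CHR it ran from 3.82 to 6.37 with a median of 5.13, and all 6 libraries held it. The CHR values of mice 7 and 9, 5.77 and 3.82, were the lowest detected values of their libraries. In PAP let-7i-3p was detected only in mouse 9, at 5.77, and in cuSCC in 4 of 6 libraries, from 3.38 to 4.22, with a cuSCC median of 3.45. All 4 detected cuSCC values lay at the lower end of the CHR range or below it. The means were 5.08 ± 0.97 in CHR and 3.62 ± 0.38 in cuSCC (SD, n = 6), so let-7i-3p fell by 1.46 on the log2 scale, to 36.3% of the CHR level (standard error 0.41, 95% interval -2.34 to -0.58, limma adjusted p = 0.0128). This ratio includes 2 cuSCC values at the floor of the table, and with undetected values left out the difference was -1.31 (adjusted p = 0.0449). With undetected values at the lowest detected value of their library it was -1.11 (limma adjusted p = 0.0441). Without CHR of mouse 7 the difference was -1.32 (limma adjusted p = 0.0304). Each of the 6 mice was lower in cuSCC, with differences of -3.04 to -0.31, and without mouse 3 the adjusted p was 0.061. These results for let-7i-3p are a description, since it passed the filter only through its CHR libraries, where it was highest.

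For papilloma the level of let-7i-3p could not be placed. The PAP mean of 3.73 ± 1.0 (SD, n = 6) differed from CHR by -1.35 (95% interval -2.50 to -0.19, limma adjusted p = 0.0732). However, the libraries in which it was not detected had lowest detected values of 3.71 to 6.83, and with these values in place of the floor the difference was 0.46. Without mouse 9, the only mouse with a detected PAP value, it was -2.01 (adjusted p = 0.00305). Against PAP, cuSCC differed by -0.11 (95% interval -1.05 to 0.82, limma adjusted p = 0.856).

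Set side by side, the order of the levels was let-7d-3p, let-7b-3p, let-7e-3p, let-7i-3p in CHR and in cuSCC. All 4 sequences are 22 bases long, and the levels were not scaled for length. How reads were divided between near-identical arms is not given in the sources used here, so the order is one of measured levels only. let-7d-3p lay above the other 3 arms in every library, whereas the CHR ranges of let-7b-3p and let-7e-3p overlapped, as did those of let-7e-3p and let-7i-3p. In cuSCC the ranges of let-7b-3p and let-7e-3p overlapped, and let-7i-3p lay below every value of let-7e-3p.

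Counted over the table, 4 of the 4 tested 3p arms passed in cuSCC against CHR, each of them lower, where 22.2% of all 293 tested microRNAs passed as lower (65) and 20.1% as higher. With mouse as a replicate block the count was 3, without let-7e-3p (limma adjusted p = 0.0719). One arm of the 4 was below CHR in every cuSCC library, against 10.6% of the tested microRNAs. The count is a description, since let-7i-3p passed the filter only through its CHR libraries and the 4 arms are in lists that the study made from the same samples. Ranked from the largest fall, let-7i-3p was at position 36, let-7b-3p at 37, let-7d-3p at 63 and let-7e-3p at 68 of 293. The median change was -1.25 for the 4 arms and 0.11 for the tested microRNAs. In PAP against CHR 0 of 4 passed by limma, where 18.4% of the tested microRNAs passed as lower and 14.0% as higher, although let-7e-3p and let-7i-3p had an unadjusted p under 0.05 (0.0364 and 0.0257). In cuSCC against PAP again 0 of 4 passed, where 2.39% passed as lower and 9.22% as higher, and let-7d-3p had an unadjusted p under 0.05. The comparisons with CHR used the same 6 CHR libraries and are not independent of each other.

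**Figure D2:**
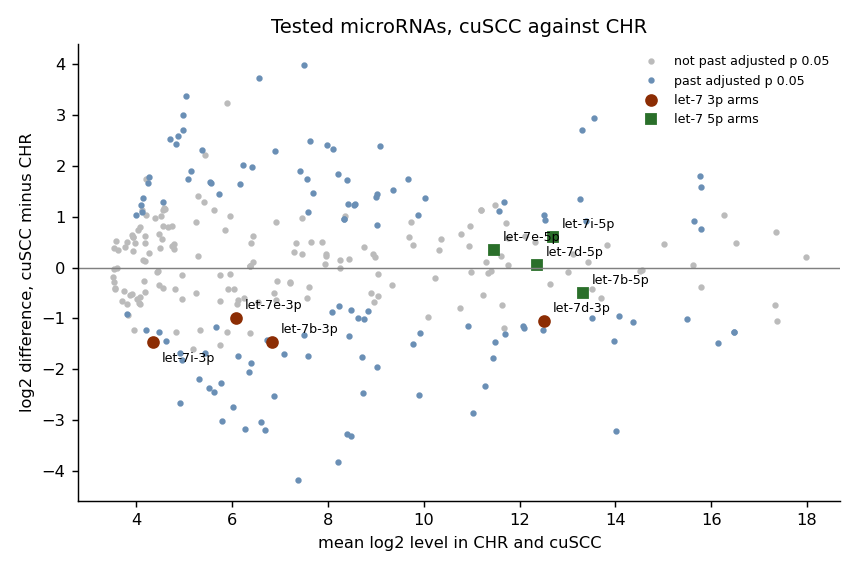
Log2 difference between cuSCC and CHR (y axis) against the mean log2 level in both types (x axis) for the 293 tested microRNAs. Blue points passed an adjusted p of 0.05 and grey points did not, with the 4 let-7 3p arms as large brown circles and the 5p arms of the same hairpins as green squares. The 3p arms sit between -1.46 and -0.99 over mean levels that run from those near the floor to those of the 5p arms.

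The 5p arms of the same hairpins did not pass the test in cuSCC against CHR, except let-7i-5p as higher under 3 of 17 alternatives. let-7d-5p differed by 0.05 between cuSCC and CHR (95% interval -0.55 to 0.65, limma adjusted p = 0.89), let-7e-5p by 0.35 (-0.29 to 0.99, adjusted p = 0.346), let-7i-5p by 0.60 (0.06 to 1.15, adjusted p = 0.0672) and let-7b-5p by -0.50 (-1.11 to 0.12, adjusted p = 0.181). Of the 9 let-7 5p arms tested, miR-98-5p included, 2 passed as higher in cuSCC than in CHR and 0 as lower, with a median change of 0.47. Over all 293 tested microRNAs 20.1% passed as higher, so the count of 2 in 9 is near the background. By direction alone, 8 of the 9 had a higher mean in cuSCC than in CHR and 1 a lower mean, against 155 higher of the 293. In PAP against CHR 9 of the 9 had a higher mean, against 125 of the 293. let-7g-5p differed by 0.66 between cuSCC and CHR (limma adjusted p = 0.0507). The 2 that passed as higher were let-7f-5p, by 0.91 (adjusted p = 0.0243, and 0.0525 with mouse as a replicate block), and miR-98-5p, by 2.50 (adjusted p = 0.00501), whose own 3p arms were not detected in any library. In CHR of mouse 7 miR-98-5p was undetected, and over 17 alternatives its difference between cuSCC and CHR ran from 1.89 to 2.71. In PAP against CHR 0 of the 9 5p arms passed by limma, and 1 of them, miR-98-5p, had an unadjusted p under 0.05 (0.0181). In cuSCC against PAP let-7b-5p fell by 1.03 on the log2 scale (adjusted p = 0.0422, and 0.0919 with the block), a call that held under 5 of 17 alternatives.

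**Figure D3:**
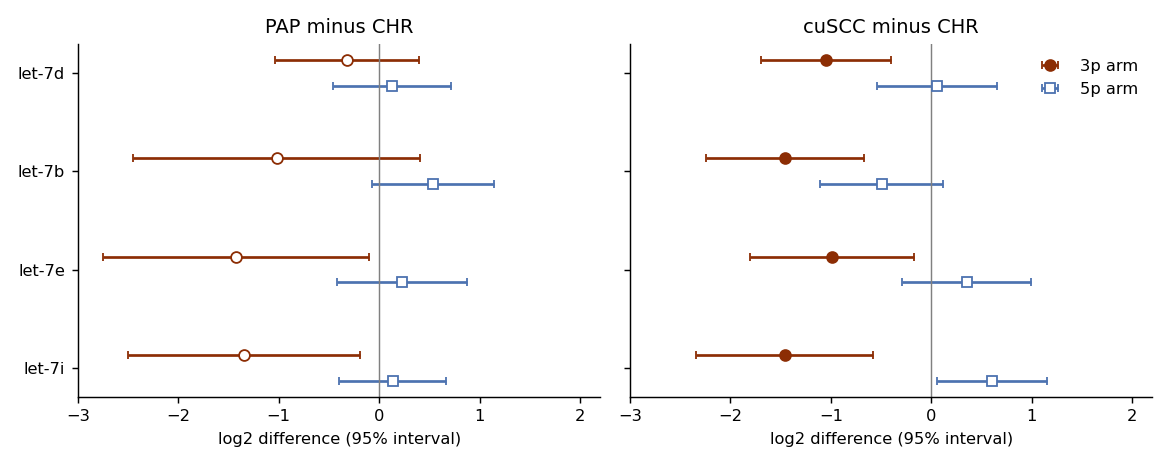
Log2 difference from CHR with its 95% interval (x axis) for the 3p arm (brown circles) and the 5p arm (blue squares) of each hairpin, in PAP on the left and cuSCC on the right. Filled symbols passed an adjusted p of 0.05. In cuSCC the 3p symbols are filled and left of 0, from -1.46 to -0.99, and the 5p symbols are open, from -0.50 to 0.60.

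The difference between the arms of 1 hairpin within 1 library asks the same question without the level of the hairpin itself. let-7d stood apart, since its 3p arm was the stronger in CHR. There the 3p arm exceeded the 5p arm in 6 of 6 libraries, by 0.37 to 1.10 with a median of 0.67. In PAP it did so in 3 of 6, from -0.72 to 1.24 with a median of 0.16, and in cuSCC in 1 of 6, from -1.03 to 0.25 with a median of -0.36. The PAP values fell on both sides of 0, and the CHR and cuSCC values did not overlap. The CHR mean of the difference was 0.69 ± 0.27 and the cuSCC mean -0.41 ± 0.47 (SD, n = 6), which is a change of -1.10 (standard error 0.33, limma adjusted p = 0.0136 over 67 hairpins), and each of the 6 mice moved down. Without mouse 3 the adjusted p was 0.054.

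In the other 3 hairpins the 3p arm was the minor one in every library. For let-7i the difference of 3p minus 5p ran from -8.55 to -5.52 in CHR, with a median of -7.53, and from -9.94 to -8.74 in cuSCC, with a median of -9.31, so these types did not overlap. The mean moved from -7.31 ± 1.17 to -9.37 ± 0.47 (SD, n = 6). This shift of -2.06 (standard error 0.48) passed with a limma adjusted p = 0.00325, also with any 1 mouse left out. It rests in part on the floor, since the 3p arm was undetected in 2 of the 6 cuSCC libraries, and was -1.71 with these at the lowest detected value and -1.90 with undetected values left out. As for its level, let-7i entered this test only through the CHR libraries of its 3p arm. For let-7e the arm difference went from -4.71 ± 0.80 to -6.04 ± 0.76 (SD, n = 6), a change of -1.34 (standard error 0.44, limma adjusted p = 0.023), with 5 of 6 mice lower and the ranges overlapping. The let-7e call held under 11 of 17 alternatives. Among those where it was lost were mouse 3 (limma adjusted p = 0.0813) or mouse 7 (0.0511) left out and a single fit on all 3 sample types (0.104). It was also lost by the exact permutation test (adjusted p = 0.0544).

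let-7b showed the smallest shift of the 4. Its arm difference went from -6.00 ± 0.52 to -6.96 ± 0.35 (SD, n = 6), a change of -0.96 (standard error 0.35, limma adjusted p = 0.0325), with values of -6.59 to -5.20 in CHR and -7.46 to -6.49 in cuSCC. All 6 mice were lower, and 5 of the 6 cuSCC values lay below every CHR value. The adjusted p was 0.0733 with mouse as a replicate block, and 0.052 to 0.0944 with mouse 2, 3, 7, 8 or 10 left out. This call held under 8 of 17 alternatives. Both arms of let-7b had a lower mean in cuSCC, with differences of -1.46 for the 3p and -0.50 for the 5p arm.

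**Figure D4:**
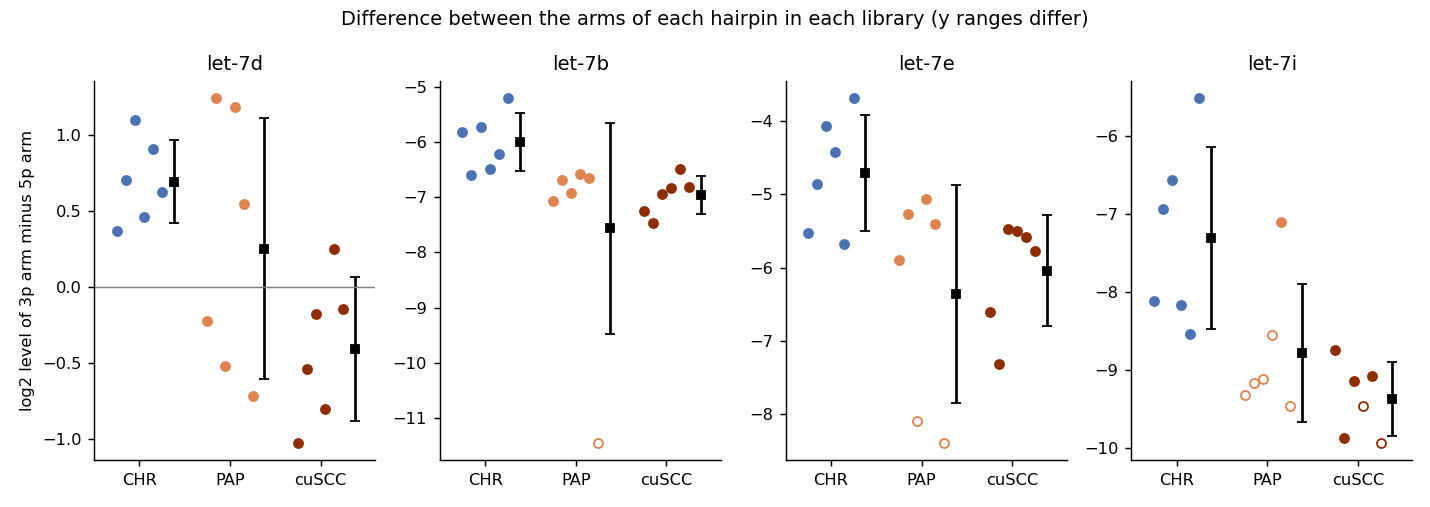
Log2 level of the 3p arm minus that of the 5p arm (y axis) in each CHR, PAP and cuSCC library, 1 panel per hairpin. Open points are libraries in which the 3p arm was at the lowest value, black squares with bars are means ± SD (n = 6), and the line in the let-7d panel marks equal arms. In let-7d the 6 CHR points are above the line and 5 of 6 cuSCC points are below it.

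Over all 67 hairpins with both arms tested, 29.9% passed as shifted towards the 5p arm in cuSCC against CHR (20) and 11.9% as shifted towards the 3p arm, and the 4 let-7 hairpins were among the 20. This count too is a description, because the 3p arm of let-7i passed the filter only through CHR. Separate ranges, with every cuSCC value below every CHR value, were found in 11.9% of the hairpins, let-7d and let-7i included. The median change over the 67 hairpins was -0.26. let-7i was at position 6 from the largest shift towards the 5p arm, let-7e at 16, let-7d at 20 and let-7b at 22. A 3p arm above its 5p arm was common in this table, with 33 of the 67 hairpins in CHR and 34 in cuSCC by their means.

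**Figure D5:**
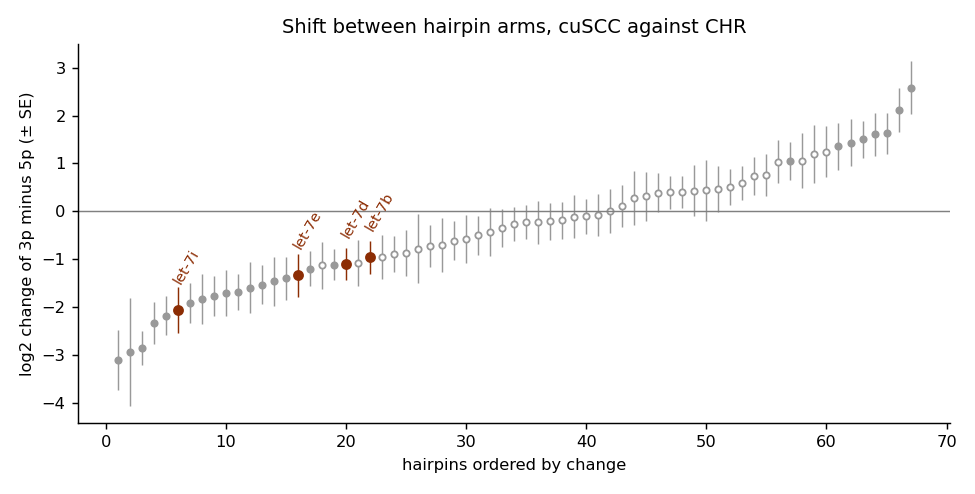
Change of the 3p minus 5p difference between CHR and cuSCC (log2, ± SE, y axis) for the 67 hairpins, ordered from the largest shift towards the 5p arm. Filled points passed an adjusted p of 0.05, and the let-7 hairpins are brown. The 4 let-7 hairpins lie between -2.06 and -0.96, with hairpins of larger and smaller shift on both sides.

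In papilloma the arm differences were too spread to pass. Relative to CHR they changed by -1.48 for let-7i (limma adjusted p = 0.163), -1.65 for let-7e (0.163), -1.56 for let-7b (0.282) and -0.44 for let-7d (0.571), so 0 of 4 passed, where 2.99% of the 67 hairpins passed as lower and 4.48% as higher. let-7i and let-7e had unadjusted p under 0.05 (0.022 and 0.0217). The let-7b value rested on PAP of mouse 10, at -11.45, where the 3p arm was not detected, and the other 5 PAP values lay between -7.06 and -6.58. In cuSCC against PAP 0 of 4 passed and 0 had an unadjusted p under 0.05, with changes of -0.66 (let-7d), -0.58 (let-7i), 0.31 (let-7e) and 0.60 (let-7b), where 2.99% of hairpins passed as lower and 1.49% as higher.

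Neighbouring microRNAs are often cut from the same transcript as a let-7 hairpin. Of the 11 listed arms from the miR-99, miR-100 and miR-125 hairpins, 9 were tested, and in cuSCC against CHR 3 passed as lower and 1 as higher, where 22.2% and 20.1% of all tested microRNAs did. Next to let-7e, the guide arms miR-125a-5p and miR-99b-5p fell by 1.48 (limma adjusted p = 0.00234) and 1.01 (0.0211, and 0.0563 with the block) on the log2 scale, beside the -0.99 of let-7e-3p, while let-7e-5p from the same hairpin cluster did not pass. The opposite arms differed by 0.62 for miR-99b-3p (adjusted p = 0.141) and -0.12 for miR-125a-3p (adjusted p = 0.83). Among the arms from other loci, miR-125b-5p fell by 0.95 (adjusted p = 0.0325) and miR-125b-1-3p rose by 1.26 (adjusted p = 0.022). In PAP against CHR 1 of the 9 was lower, miR-125a-5p at -1.21 (adjusted p = 0.0166), and 1 higher, miR-125b-1-3p at 1.54 (adjusted p = 0.00493), near the 18.4% and 14.0% of all tested microRNAs. The cluster partners of let-7b and let-7d gave no such comparison for their 3p arms, since let-7c-2-3p, let-7f-1-3p and let-7a-1-3p were under the filter.

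The 4 arms varied together only in part. Over the 18 libraries their levels correlated with Pearson r from 0.33, for let-7d-3p with let-7i-3p, to 0.64, for let-7b-3p with let-7e-3p, and with the mean of each sample type removed from -0.04 to 0.58. Against their own 5p arms r was 0.11 for let-7b, 0.06 for let-7d, -0.14 for let-7e and -0.32 for let-7i. These points share their libraries, detection limits and normalisation, and the values are a description.

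By the same measure the tested microRNAs most like let-7b-3p were miR-574-3p (r = 0.85 over 18 libraries), miR-674-3p (0.84) and miR-1249-3p (0.82), and those most like let-7d-3p were miR-744-5p (0.84), miR-378a-3p (0.83) and miR-6406 (0.82). For let-7e-3p they were miR-342-3p (0.82), miR-139-5p (0.79) and miR-223-3p (0.79), and for let-7i-3p miR-145a-5p (0.71), miR-1249-3p (0.66) and miR-532-3p (0.65). With type means removed, r stayed at 0.81 to 0.87 for the partners of let-7b-3p and fell to 0.28 to 0.51 for those of let-7i-3p.

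The tissues were bulk samples, in which fewer cells of a type and less RNA per cell cannot be told apart. Levels of several cell type microRNAs differed between sample types, and whether cell makeup differed was not tested. Leukocyte microRNAs, a list that holds miR-342-3p and miR-223-3p, had a mean log2 level between 8.56 and 9.82 over the CHR libraries, 5.17 and 8.32 over PAP and 7.64 and 9.10 over cuSCC. Of the 4 tested of 5 listed, 2 passed as lower and 1 as higher in cuSCC and 2 as lower in PAP. The list of fibroblasts and smooth muscle, which holds miR-145a-5p, spanned 11.39 to 12.07 (CHR), 6.67 to 11.28 (PAP) and 9.05 to 12.33 (cuSCC), with 1 of 5 lower in cuSCC and 3 of 5 lower in PAP. Skeletal muscle microRNAs spanned 7.54 to 8.38, 3.32 to 5.60 and 3.78 to 8.05 in the same order, with 1 of 3 tested lower in cuSCC and 3 of 3 lower in PAP. Keratinocyte microRNAs spanned 9.48 to 11.05, 10.68 to 11.93 and 10.43 to 11.97, with 3 of 7 higher in cuSCC and 4 of 7 higher in PAP. Endothelial microRNAs, at 6.63 to 8.27, 5.43 to 7.79 and 8.10 to 10.16, were higher in cuSCC in 2 of 2, and of the erythroid list, at 7.78 to 9.22, 9.42 to 11.22 and 8.96 to 11.14, 1 of 2 tested was higher and 1 lower in cuSCC, and 1 higher in PAP. In the endothelial list 0 of 2 passed by limma in PAP, and 0 had an unadjusted p under 0.05. Over all tested microRNAs the shares were 22.2% lower and 20.1% higher in cuSCC, and 18.4% lower and 14.0% higher in PAP. miR-144-3p, miR-1a-3p and miR-142-3p, defining members of the erythroid, skeletal muscle and leukocyte lists, were at or near the lowest value. The part of cell makeup in the lower let-7 3p arms was not tested.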

How the data were processed

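Small RNA libraries of 18 tissues (6 mice, 3 sample types) were analysed. Per the methods of the study, the authors trimmed adapters, discarded very short and homopolymer-ended reads, used BLAST to assign the remainder to miRBase entries and gave abundances in ppm of usable reads. The deposited values are log2 ppm, and libraries hold nearly the same value at each rank until their detected entries end, as quantile normalisation leaves them; this and the log base were read from the values. The linear values sum to 2348300 to 2358290 per library, more than ppm of one total would give, so a level is not a share of a fixed total. How reads were divided between near-identical arms, and the versions of the tools, are not given in the sources used here. The submitters' notes name the build mm10.

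Libraries were grouped by their labels. Entries detected, that is above the floor, in 6 or more of 18 libraries (293 of 1251, with 818 entries never detected) were fitted pairwise, 6 libraries against 6, with limma 3.58.1 (lmFit and eBayes, two-sided, no block) in R 4.3.3. p-values were adjusted by Benjamini-Hochberg over all tested microRNAs, with a threshold of 0.05. The 3p minus 5p difference was fitted in the same way over 67 hairpins. Percentages of the CHR level are ratios of geometric means. The script was tested on simulated data. Tables were joined in Python 3.11.15 with numpy 2.4.6 and pandas 2.3.3 and drawn with matplotlib 3.10.9. Mature sequences and positions are from RefSeq, GRCm38.p6, matched by name (1001 of 1251 entries and 241 of the tested), and overlapping genes from GENCODE M21 on GRCm38. The list names miR-126a, miR-142a and miR-486a were matched to the table's miR-126, miR-142 and miR-486.

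The replicate number is the mouse number in the sample titles, and same-numbered libraries come from the same animal, so they are paired. Their deviations from the type means correlated little, with a mean r of -0.07 for cuSCC and CHR, 0.03 for PAP and CHR and 0.06 for cuSCC and PAP. The methods of the study mention no block, and mouse as a block was run as an alternative, beside other filters, treatments of undetected values, an exact permutation test, centring, a joint fit and leaving out each mouse or single libraries. Named microRNAs are the 4 arms, the listed let-7 5p arms and cluster neighbours, and for each arm the 3 tested microRNAs with the highest r. The members and lists were chosen with earlier results of these data known.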

Additional observations from a re-analysis of the deposited data

Results flagged for a closer look

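Each of the 24 sets of 6 values, the levels of the 4 3p arms and the 4 arm differences in each of the 3 sample types, was searched for 1 library far from the other 5. In 4 of them the gap of the lowest or highest library to the next, divided by the range of the 6, was above 0.625. About 1 set in 20 exceeds this when its values are independent and normally distributed. Some sets held values tied at the floor, and a level and its arm difference share the 3p values. The 4 were therefore not compared with that rate. let-7b-3p in PAP of mouse 10 was at the lowest value, 3.32 (gap over range 0.674), and the let-7b difference of 3p minus 5p in the same library was -11.45 (0.9). let-7e-3p in CHR of mouse 9 was at 5.14, below the other 5 CHR libraries (0.691). let-7i-3p in PAP of mouse 9 was at 5.77, the only detected value of the 6, so the gap was the whole range (1.0). PAP of mouse 10 had 163 detected entries, the fewest of the 18 libraries.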

How the results depend on the processing

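In cuSCC against CHR 4 of the 4 arms passed by level. The count became 2 in 1 fit on all 3 sample types and 2 with 100 ppm as the lowest value. With a mouse left out it was 1 to 4 (1 without mouse 3). It stayed 4 without cuSCC of mouse 10 and was 3 in all other alternatives. For PAP against CHR the count of 0 became 2 in the joint fit and 0 to 1 with a mouse left out, and for cuSCC against PAP 1 with undetected values at the lowest detected value of their library. For the arm difference in cuSCC against CHR the count of 4 became 1 in the joint fit, 2 with 100 ppm, 2 without CHR replicate 7 and 1 to 4 with a mouse left out (1 without mouse 3, 2 without mouse 7). It was 3 by the exact permutation test and with detection in 12 libraries, where let-7i was not tested. The 2 with 100 ppm were let-7d and let-7i. Every let-7i-3p value was under 100 ppm and set to that floor. The let-7i value there, -0.60, thus holds only the change of let-7i-5p and shows no shift between arms. For the arm difference in PAP against CHR the count of 0 became 1 with 100 ppm and 0 to 1 with a mouse left out, and for cuSCC against PAP 1 with the lowest detected value. With mouse as a replicate block, the pairing of the libraries, 3 of 4 arms (let-7e-3p 0.0719) and 3 of 4 arm differences (let-7b 0.0733) passed in cuSCC against CHR. Among the let-7 5p arms and neighbours, for which the alternatives were chosen after seeing the data, let-7f-5p (0.0525), miR-99b-5p (0.0563) and, in cuSCC against PAP, let-7b-5p (0.0919) lost their call with the block. Their count of 6 in cuSCC against CHR rose to 7 in the joint fit and with centring, 8 with detection in 1 or 12 libraries or 100 ppm and 9 by the exact permutation test (let-7i-5p passed with detection in 1 library, 0.021, 100 ppm, 0.0203, and the permutation test, 0.0244), and was 4 with the block and 2 to 6 with a mouse left out (2 without mouse 10, 3 without mouse 3, 7 or 8). The count of 2 in PAP against CHR became 4 in the joint fit and in both treatments of undetected values, and 1 to 3 with a mouse left out. The count of 1 in cuSCC against PAP became 0 with detection in 1 or 12 libraries, the block, centring, 100 ppm, undetected values left out, the exact permutation test or PAP of mouse 10 left out, and 0 to 1 with a mouse left out. Over the alternatives let-7b-3p passed in 16 of 17, let-7d-3p in 14 of 17, let-7i-3p in 14 of 15 and let-7e-3p in 3 of 17 (adjusted p 0.007 to 0.174), always lower in cuSCC than in CHR. The direction of the 4 arms turned only in comparisons with PAP, and that of let-7d-5p in cuSCC against CHR without mouse 10 (-0.13 to 0.14 with a mouse left out). For let-7i-3p, PAP against CHR became 0.46 with the lowest detected value and 0.69 with undetected values left out (arm difference 0.32 and 0.21), and cuSCC against PAP ran from -0.31 to 0.32 with a mouse left out (0.32 without mouse 9). For let-7e-3p, cuSCC against PAP became -0.71 and -0.47 in these treatments and -0.0096 (without mouse 7) to 0.84 with a mouse left out, and its arm difference -0.84, -0.63, -0.13 with 100 ppm, -0.15 (without mouse 7 or 10) to 0.79 with a mouse left out and -0.09 without PAP of mouse 10. The let-7b arm difference of cuSCC against PAP became -0.18 with undetected values or PAP of mouse 10 left out and -0.21 (without mouse 10) to 0.87 with a mouse left out. Apart from the replacement of undetected values, the causes were not tested. let-7i-3p gave no value with detection in 12 libraries or 100 ppm, and a pseudocount was not run, as the deposited values are log2. Over all tested microRNAs 124 passed in cuSCC against CHR (80 with 100 ppm, 77 to 129 with a mouse left out), 95 in PAP against CHR (57, 55 to 79) and 34 in cuSCC against PAP (2 with 100 ppm or with detection in 1 library, 80 with the lowest detected value, 0 by the exact permutation test, 15 without PAP of mouse 10, 1 to 59 with a mouse left out). Read depth is unknown, and levels below a library's lowest detected value could not be measured.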
